A study of Mus musculus with 4 samples.

Results

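The outer segment disc structure genes comprised 10 of the 22095 gene loci in the deposited table, chosen by symbol as the genes of the disc rim, disc formation, the axoneme and the interphotoreceptor matrix of rods and cones. Each of the 10 symbols had exactly 1 locus. Their mRNA was measured by RNA-seq in whole retinas of *rd7* mice, which carry a mutation in the rod transcription factor gene *Nr2e3*, and of wild-type mice. Both genotypes were labelled C57BL/6J and were sampled at 3 weeks of age. Each genotype had 2 libraries, and each library pooled 8 retinas from 2 female and 2 male mice, so that the spread between libraries is a spread between pools. The *rd7* allele is carried by every cell of the animal, and a whole retina mixes photoreceptors with glia and inner retinal neurons.

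The photoreceptor outer segment is a modified cilium filled with stacked membrane discs that hold the visual pigment. New discs form at its base by outgrowth of the plasma membrane, and a rim of tetraspanin proteins bends the membrane at the disc edge. In rods the discs close off inside the plasma membrane, whereas in cones they remain continuous with the plasma membrane. Microtubules of the axoneme run along the discs, and a matrix of proteoglycans surrounds the outer segments. Mutations in most of these genes cause retinal degeneration in humans.

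The values are FPKM, mapped fragments scaled for transcript length and sequencing depth, which can be compared between genes. Genotypes were compared by limma on log2(FPKM + 0.1) over 12655 genes, those whose FPKM averaged 1 or more and was estimated successfully in all 4 libraries, with Benjamini-Hochberg adjustment over all of them. Genes with an adjusted p under 0.05 (an FDR of 5%) were called. A fold change on this scale slightly understates the change of low genes. The FPKM of *Nr2e3* was 2493 and 1589 in *rd7* and 385 and 394 in wild-type retinas, so that its deposited level separates the labels. This higher mRNA level is not a gain of the factor, since the paper describes *rd7* mice as lacking it. From the lowest FPKM of genes with a single annotated transcript, within a preset window, the libraries were estimated to hold between 3.49e+07 and 3.56e+07 reads. The window bounds both this level and its spread between libraries, so it is a rough figure and does not show equal depth. On their coding length alone, the disc structure genes would then have had between 2241 and 63795 reads per library, for a counting error of about 2.11% or less.

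Without further scaling, the disc structure genes did not all move in the same direction. This split depended on the processing, and 0 were called higher after the correction for GC and length given below. In *rd7* retinas, the disc rim genes *Prph2* and *Rom1*, the axonemal gene *Rp1l1*, the transport gene *Tulp1* and the actin-bundling gene *Fscn2* were lower, at 0.701 (*Prph2*) to 0.862 (*Rp1l1*) times their wild-type means. The matrix proteoglycan genes *Impg1* and *Impg2* were higher, by 17.6% and 34.5%. *Cdhr1* and *Rp1* did not pass the test, and *Prom1* was not tested because its estimate was marked as failed in wild-type replicate 2. Of the 9 genes tested, 2 were therefore higher, compared with 37.6% of all genes tested, and 5 were lower, compared with 8.80% of all genes. Their median log2 fold change was -0.21, beside 0.15 for all genes. In 9 of the 10 genes the *rd7* values did not overlap the wild-type values, compared with 76.6% of all genes. They lay below in 6 genes (19.5% of all genes) and above in 3 (57.1% of all genes). In bulk tissue, fewer cells of a type and less RNA per cell cannot be told apart.

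These counts depended on scaling and on the wild-type libraries. With median-ratio scaling, which sets each library by its typical gene, the median of all genes moved from 0.15 to -0.0049. The same 5 genes were then lower, compared with 19.6% of all genes, and only *Impg2* was higher, compared with 19.7%. With a correction of each library for exonic GC content and length, 6 of the 9 genes were lower (15.1% of all genes) and 0 were higher in limma (12.4% of all genes), and 0 were higher at an unadjusted p under 0.05. With the replicate number as a block, 5 genes were lower (8.62% of all genes) and 2 higher (35.6%). When wild-type replicate 1 was left out, 2 genes were lower (1.77% of all genes) and 0 higher (10.2%), and without wild-type replicate 2, 2 were lower (2.67%) and 1 was higher (16.8%). Over all genes, too, fewer were called in both of these fits. *Tulp1* and *Fscn2* were the genes called lower under each of the 14 alternatives at this FDR.

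**Figure D1:**
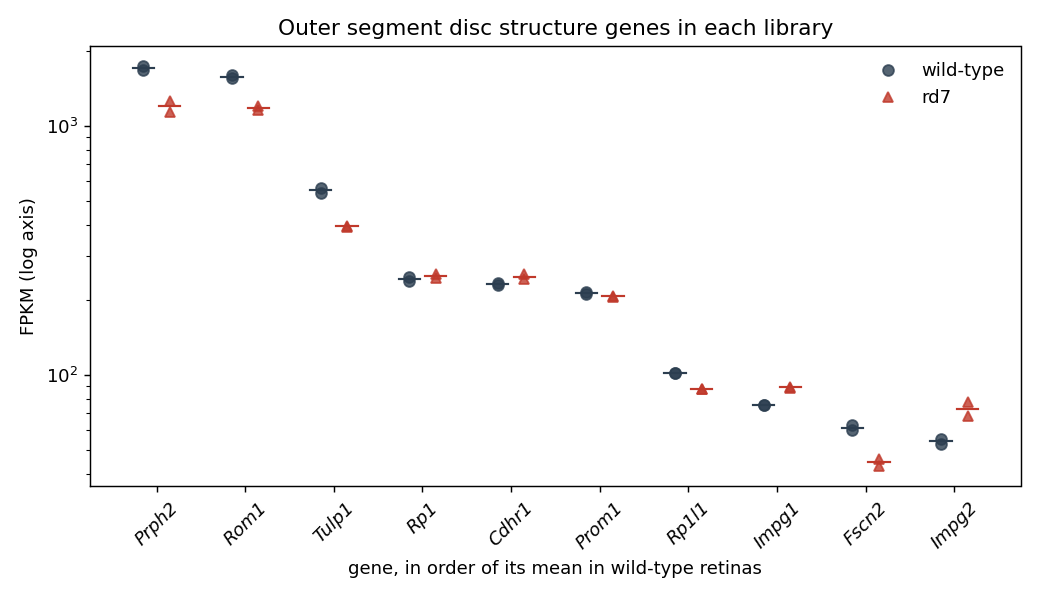
FPKM of the 10 disc structure genes in each library on a log axis, with circles for the 2 wild-type and triangles for the 2 *rd7* libraries and a line at each mean. *Prph2* and *Rom1* lie above all others in all 4 libraries, and *Rp1* is the gene whose *rd7* and wild-type values overlap.

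*Prph2* and *Rom1* encode the related tetraspanins peripherin-2 and ROM1, which assemble with each other at the disc rim and hold it in its curved shape. *Prph2* lies in mm9 at chr17:47047434-47061875. Its FPKM was 1139 and 1254 in *rd7* retinas, against 1736 and 1677 in wild-type retinas. Both *rd7* pools were thus below both wild-type pools. The log2 fold change was -0.51 ± 0.07 (SE, limma, adjusted p = 0.00309). *Rom1*, at chr19:9001872-9003846, had an FPKM of 1159 and 1200 in *rd7* and of 1591 and 1554 in wild-type retinas. Here too the genotypes were apart, with a log2 fold change of -0.42 ± 0.05 (SE, limma, adjusted p = 0.00303). Across the alternatives the log2 fold change ranged from -0.67 to -0.44 for *Prph2* and from -0.57 to -0.36 for *Rom1*. Both calls were lost without a filter on low FPKM and without wild-type replicate 1 or replicate 2, where the adjusted p from limma was between 0.0531 and 0.296.

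The rim pair made up 67.9% and 68.4% of the summed FPKM of the 10 genes in the wild-type libraries and 62.3% and 63.8% in the *rd7* libraries. Within a library, the ratio of *Prph2* to *Rom1* was 1.09 and 1.08 in wild-type and 0.983 and 1.04 in *rd7* retinas. A ratio within a library is free of library scaling but is not corrected for GC and length, and this one shifted by -0.10 on the log2 scale. After that correction the log2 fold changes were -0.61 for *Prph2* and -0.36 for *Rom1*, further apart than as reported. A comparison of 2 with 2 libraries cannot give an exact permutation p under 0.33, so the ratios are given without a test.

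The 250 bases before the annotated start of both genes are shown because the rim pair fell together. The sequences are from RefSeq for GRCm38.p6, 5′ to 3′ on the strand of the gene, with the motif TAATC, the motif TAAGCC and their reverse complements in capitals. Homeodomain factors of the CRX and OTX kind, which drive photoreceptor genes, bind motifs with such letters. Both motifs were chosen after the windows had been read. The longer homeodomain motif TAATCC, set in advance, was in neither window, and no binding was measured. The *Prph2* window is chr17:46910228-46910477 on the plus strand and the *Rom1* window is chr19:8929357-8929606 on the minus strand.
Prph2: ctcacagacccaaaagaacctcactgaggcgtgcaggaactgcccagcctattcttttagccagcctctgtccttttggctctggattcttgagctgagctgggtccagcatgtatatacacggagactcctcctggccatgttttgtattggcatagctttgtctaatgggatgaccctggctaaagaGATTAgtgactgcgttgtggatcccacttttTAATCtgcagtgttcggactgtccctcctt
Rom1: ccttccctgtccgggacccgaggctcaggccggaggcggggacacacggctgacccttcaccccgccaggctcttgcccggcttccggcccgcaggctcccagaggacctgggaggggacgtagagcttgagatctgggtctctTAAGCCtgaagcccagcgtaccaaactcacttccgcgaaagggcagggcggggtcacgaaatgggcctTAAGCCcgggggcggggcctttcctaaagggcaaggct
The *Prph2* window held TAATC in both orientations, at 61 and 30 bases before the start. The *Rom1* window held no TAATC and instead held TAAGCC at 106 and 38 bases before the start.

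*Prom1* and *Cdhr1* encode prominin-1 and the photoreceptor protocadherin, membrane proteins found where new discs form at the base of the outer segment. Their levels differed little between genotypes. *Prom1*, at chr5:44384861-44492975, had an FPKM of 205 and 208 in *rd7* and of 210 and 215 in wild-type retinas, the last of these from the library in which the estimate was marked as failed. The *rd7* values were the lower ones, at 0.97 times the wild-type mean. In a fit that kept loci of any status, added after this mark was seen, its log2 fold change was -0.04 ± 0.05 (SE, limma, adjusted p = 0.461). *Cdhr1*, at chr14:37891035-37911497, had an FPKM of 252 and 243 in *rd7* and of 230 and 233 in wild-type retinas. Its *rd7* values were above the wild-type values, with a log2 fold change of 0.10 ± 0.05 (SE, limma, adjusted p = 0.151). This difference turned to -0.06 under median-ratio scaling and to -0.08 after correction for GC and length, and it was called only without *rd7* replicate 2 (0.12, adjusted p = 0.0297 from limma).

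*Rp1* and *Rp1l1* encode related microtubule-binding proteins with doublecortin domains that sit on the axoneme and keep the discs in register. *Rp1*, at chr1:4334224-4350473, had an FPKM of 253 and 244 in *rd7* and of 238 and 247 in wild-type retinas. These ranges overlapped, and the log2 fold change was 0.04 ± 0.05 (SE, limma, adjusted p = 0.566). The value turned to -0.12 under median-ratio scaling and to -0.36 after correction for GC and length, where *Rp1* was called lower (adjusted p = 0.00587 from limma). *Rp1l1*, at chr14:64611268-64652343, had an FPKM of 87.4 and 87.8 in *rd7* and of 101.8 and 101.5 in wild-type retinas. The pools of a genotype were close to each other and the genotypes were apart, with a log2 fold change of -0.21 ± 0.04 (SE, limma, adjusted p = 0.0120). The call was lost without wild-type replicate 1 (adjusted p = 0.128 from limma) or replicate 2 (adjusted p = 0.110 from limma). *Rp1* was 2.34 and 2.43 times as abundant as *Rp1l1* in the wild-type libraries and 2.90 and 2.78 times in the *rd7* libraries. These ratios are not corrected for GC and length. After that correction the log2 fold changes of the 2 genes were nearly equal, at -0.36 for *Rp1* and -0.34 for *Rp1l1*.

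*Tulp1* encodes a tubby-like protein needed to carry proteins from the inner to the outer segment. At chr17:28488464-28502088, it had an FPKM of 393 and 397 in *rd7* and of 564 and 538 in wild-type retinas. Both *rd7* pools were below both wild-type pools, and its log2 fold change of -0.48 had the lowest adjusted p of the 9 genes tested (standard error 0.05, adjusted p = 0.00184 from limma). It ranged from -0.63 to -0.45 over the alternatives. *Fscn2* encodes fascin-2, an actin-bundling protein of photoreceptors. At chr11:120222848-120229487, it had an FPKM of 42.9 and 45.9 in *rd7* and of 62.8 and 59.8 in wild-type retinas. The genotypes did not overlap, and the log2 fold change was -0.46 ± 0.06 (SE, limma, adjusted p = 0.00271), with a range from -0.62 to -0.42 over the alternatives.

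*Impg1* and *Impg2* encode proteoglycans of the interphotoreceptor matrix that bind hyaluronan around rods and cones. *Impg1*, at chr9:80161137-80359045, had an FPKM of 89.1 and 88.8 in *rd7* and of 75.7 and 75.5 in wild-type retinas. The genotypes were apart by more than the pools of either, with a log2 fold change of 0.23 ± 0.04 (SE, limma, adjusted p = 0.00904). *Impg2*, at chr16:56204426-56273866, had an FPKM of 67.9 and 77.6 in *rd7* and of 52.8 and 55.4 in wild-type retinas. Its *rd7* pools differed from each other by 13.2% of their mean, the widest gap among the 10 genes, and both were above the wild-type pools. The log2 fold change was 0.42 ± 0.07 (SE, limma, adjusted p = 0.00728).
The rise of the matrix pair depended on the processing. For *Impg1* the log2 fold change was 0.08 (limma, adjusted p = 0.196) under median-ratio scaling and -0.06 (limma, adjusted p = 0.321) after correction for GC and length. For *Impg2* it was 0.27 (adjusted p = 0.0373 from limma) and 0.04 (adjusted p = 0.704 from limma). Without wild-type replicate 1, neither was called (adjusted p = 0.103 and 0.0756 from limma), and without replicate 2 *Impg1* was not called (adjusted p = 0.0929 from limma). Without a filter on low FPKM, *Impg2* was not called (adjusted p = 0.0953 from limma). *Impg1* lies 20.4 Mb from *Nr2e3* on chromosome 9, and whether DNA linked to the *rd7* allele bears on its level was not tested.

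The corresponding windows of the matrix pair are shown to set the genes that rose beside the rim pair. They are chr9:80465439-80465688 on the minus strand for *Impg1* and chr16:56204063-56204312 on the plus strand for *Impg2*, from RefSeq for GRCm38.p6, with the same letters in capitals.
Impg1: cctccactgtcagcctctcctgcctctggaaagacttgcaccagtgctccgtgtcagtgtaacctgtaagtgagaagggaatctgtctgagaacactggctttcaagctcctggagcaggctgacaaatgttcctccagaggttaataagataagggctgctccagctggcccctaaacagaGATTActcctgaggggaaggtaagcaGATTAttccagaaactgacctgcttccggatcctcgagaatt
Impg2: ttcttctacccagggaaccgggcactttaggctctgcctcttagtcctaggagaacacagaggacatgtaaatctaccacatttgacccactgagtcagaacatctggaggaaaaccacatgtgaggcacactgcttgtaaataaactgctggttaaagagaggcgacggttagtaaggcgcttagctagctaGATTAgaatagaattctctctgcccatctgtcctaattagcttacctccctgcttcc
Both held TAATC on the opposite strand, *Impg1* at 68 and 42 and *Impg2* at 57 bases before the start.
RefSeq windows of 300 bases, 250 before and 50 after the start, were matched for 8 of the 10 genes, in 9 windows since *Prom1* had 2. Each motif was searched on both strands. TAATCC, the longer homeodomain motif, was in 0 of the 9 windows and in 7.06% of all 32851 windows. TGCTGAC, a half-site of the rod factor NRL, was in 0 windows and in 4.67% of all. AAGTCA, a half-site of NR2E3, was in 1 window, that of *Impg2* from base 15 to base 20 after the start, and in 15.1% of all. TAATC, which lies within TAATCC, was in 5 of the 9 windows and in 22.0% of all, and TAAGCC was in 3 windows and in 9.48% of all. The motifs TAATC and TAAGCC were chosen after the windows had been read. A match is a string of letters and not a measured binding site.

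**Figure D2:**
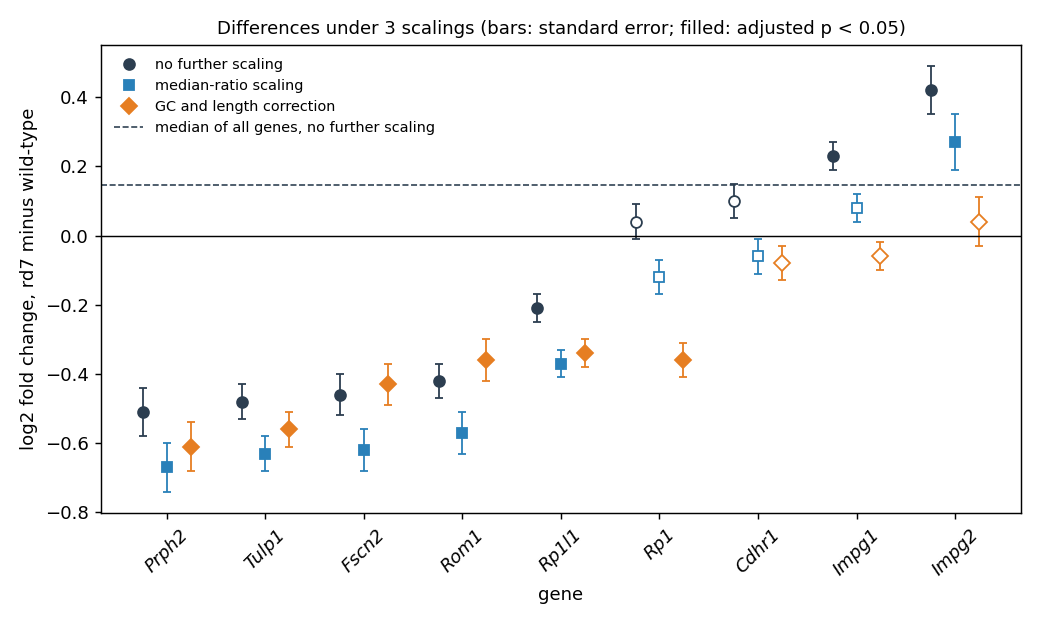
Log2 fold change of the 9 tested disc structure genes, *rd7* minus wild-type, without further scaling (circles), with median-ratio scaling (squares) and with a GC and length correction (diamonds), with the standard error as bars and filled symbols where the adjusted p from limma is under 0.05. *Prph2*, *Tulp1*, *Fscn2*, *Rom1* and *Rp1l1* are below 0 and filled under all 3, whereas *Impg1* is filled under the first only.

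In wild-type retinas the order of mean FPKM was *Prph2* (1707), *Rom1* (1573), *Tulp1* (551), *Rp1* (242), *Cdhr1* (232), *Prom1* (213), *Rp1l1* (102), *Impg1* (75.6), *Fscn2* (61.3) and *Impg2* (54.1). No neighbours in this order had overlapping values. In *rd7* retinas *Prph2* and *Rom1* overlapped, as did *Rp1* and *Cdhr1*. The order also changed at the lower end. *Impg1* was nearly level with *Rp1l1* in the *rd7* libraries (1.02 and 1.01 times) and below it in both wild-type libraries (0.744 in each). *Impg2* was 1.58 and 1.69 times as abundant as *Fscn2* in *rd7* retinas and 0.840 and 0.926 times in wild-type retinas. The widest shift among the 6 pairs examined was that of *Impg2* over *Prph2*, at 0.94 on the log2 scale. These last 3 pairs were chosen after their values were seen, and no ratio was corrected for GC and length. After that correction the log2 fold change was 0.04 for *Impg2* and -0.61 for *Prph2*, nearer to each other than as reported.

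**Figure D3:**
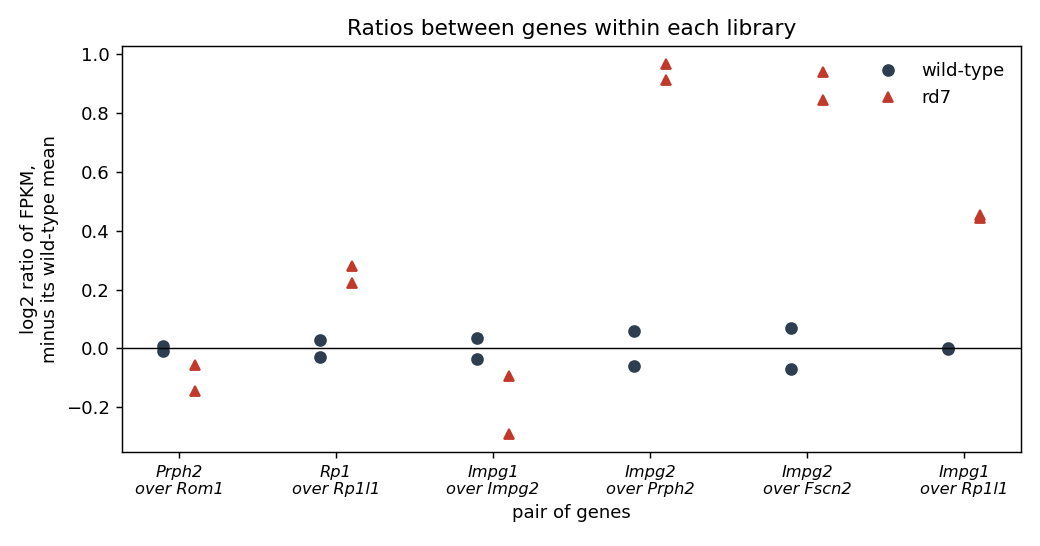
Log2 ratio of FPKM between 2 disc structure genes within each library, minus its mean in wild-type retinas, with circles for wild-type and triangles for *rd7* libraries. The *rd7* values lie apart from the wild-type values in all 6 pairs, from a shift of -0.19 for *Impg1* over *Impg2* to 0.94 for *Impg2* over *Prph2*. Single genes did not overlap in 76.6% of all genes. *Impg2* over *Prph2*, *Impg2* over *Fscn2* and *Impg1* over *Rp1l1* were chosen after their values were seen. In *Prph2* over *Rom1* and *Impg1* over *Impg2*, the *rd7* libraries differ from each other by more than the gap between genotypes. The ratios are not corrected for GC and length.

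The genes that fell and those that did not also differed in base composition, which the choice of genes did not use. Exonic GC content was between 53.5% and 58.7% in the 5 lower genes, 50.7% in *Cdhr1*, 46.1% in *Prom1*, 44.7% in *Impg1*, 41.2% in *Impg2* and 39.6% in *Rp1*. The locus was also shorter in 4 of the lower genes, from 1.98 kb (*Rom1*) to 14.4 kb (*Prph2*), than in the others, where it ran from 16.2 kb (*Rp1*) to 198 kb (*Impg1*), with *Rp1l1* at 41.1 kb. The 9 points share their libraries, and no test was made of this relation. No other locus in the table overlapped any of the 10 genes.

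**Figure D4:**
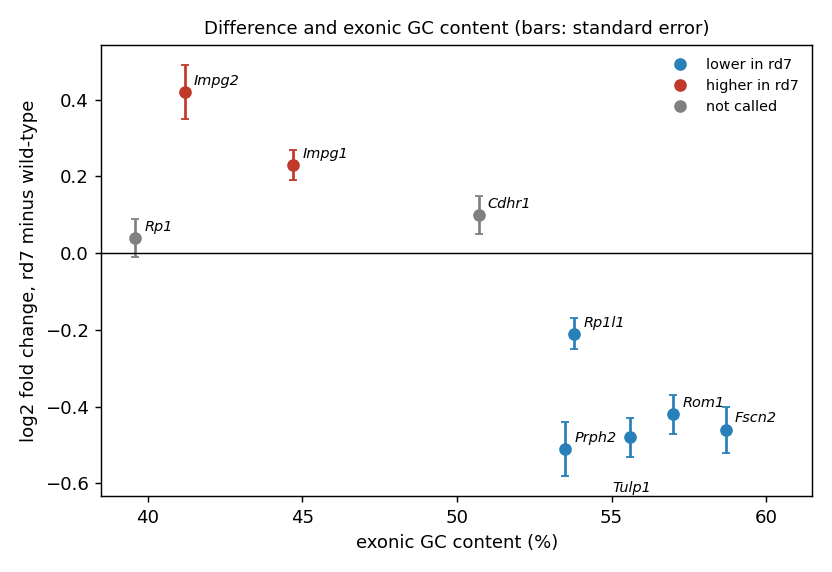
Log2 fold change of the 9 tested disc structure genes against the GC content of their exons in percent, with the standard error as bars and the colour giving the call. The 5 lower genes lie between 53.5% and 58.7% GC and the 2 higher genes at 41.2% and 44.7%.

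Other genes of the outer segment were counted from lists, to be read against the 37.6% of all genes called higher and the 8.80% called lower. Median-ratio scaling (19.7% higher and 19.6% lower) and the correction for GC and length (12.4% and 15.1%) changed several of these counts. Of 10 partners in the disc membrane and rim, 8 were tested, of which 5 were lower and 2 higher, with a median log2 fold change of -0.30. The counts were 5 and 2 under median-ratio scaling and 6 and 0 after the correction. *Slc24a1*, the rod sodium-calcium-potassium exchanger, fell most, from an FPKM of 418 and 428 to 225 and 251 (log2 fold change -0.83, adjusted p = 0.000973 from limma). *Abca4*, the retinoid flippase of the disc rim, fell by 0.47 and *Prcd*, a small disc protein listed as *Gm11744*, fell by 0.30 in log2 units (limma, adjusted p = 0.00222 and 0.00666). *Gucy2f*, a retinal guanylate cyclase, rose most, by 0.47 (adjusted p = 0.00225 from limma). Its call was lost with the GC and length correction (0.10, adjusted p = 0.228 from limma).

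Of 11 genes of actin-driven disc outgrowth, most of them subunits of the Arp2/3 complex that branches actin, 10 were tested, of which 6 were higher and 0 lower, with a median of 0.21. *Actr2*, an Arp2/3 subunit, rose most, from an FPKM of 25.6 and 26.6 to 37.0 and 39.4 (log2 fold change 0.55, adjusted p = 0.00168 from limma). *Arpc1a*, another subunit, had the lowest value, at 0.01 (adjusted p = 0.862 from limma). The call of *Actr2* was lost after the correction for GC and length (0.18, limma, adjusted p = 0.0559). Of the 10 genes, 3 were higher and 0 lower under median-ratio scaling (median 0.05), and 1 was higher and 1 lower after the correction (median 0.02).

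Of 15 genes of the axoneme and connecting cilium, all were tested, and 6 were higher and 1 lower, with a median of 0.09, a share of higher genes near that of all genes. Under median-ratio scaling 3 were higher and 1 lower (median -0.07), and after the correction for GC and length 2 were higher and 4 lower (median -0.08). *Lca5*, which encodes the ciliary protein lebercilin, rose from an FPKM of 21.0 and 21.2 to 36.5 and 35.2 (log2 fold change 0.76, adjusted p = 0.00061 from limma). *Cc2d2a*, a gene of the ciliary transition zone, fell by 0.49 (adjusted p = 0.00285 from limma). Of 13 genes of transport to the outer segment, 3 were higher and 2 lower, with a median of 0.11. This balance turned to 3 higher and 4 lower under median-ratio scaling (median -0.05) and to 0 higher and 4 lower after the correction (median -0.07). *Rp2*, listed as *Rp2h*, rose most, by 0.62 (adjusted p = 0.00458 from limma), but was not called after the correction (0.22, limma, adjusted p = 0.133). *Unc119*, which carries lipid-modified proteins such as transducin, fell most, by 0.47 (adjusted p = 0.0024 from limma).

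Of 12 further genes of the interphotoreceptor matrix, 7 were tested, of which 3 were higher and 0 lower, with a median of 0.13. Under median-ratio scaling 2 were higher and 0 lower (median -0.01), and after the correction 1 was higher and 1 lower (median 0.09). *Cd44*, a hyaluronan receptor of Müller cells, had the highest value, with an FPKM of 2.36 and 3.67 in *rd7* and of 1.52 and 1.56 in wild-type retinas (log2 fold change 0.90, adjusted p = 0.0184 from limma), and was not called after the correction (0.57, limma, adjusted p = 0.0993). *Egflam*, which encodes pikachurin, rose by 0.26 (adjusted p = 0.00756 from limma), but was not called under median-ratio scaling (0.10, limma, adjusted p = 0.118) or after the correction (0.09, limma, adjusted p = 0.183). *Rbp3*, the abundant retinoid-binding protein of the matrix, had an FPKM of 779 and 933 in *rd7* and of 899 and 887 in wild-type retinas, and was not called (log2 fold change -0.07, adjusted p = 0.568 from limma). *Hapln4*, a hyaluronan link protein, had the lowest value, at -0.32 (adjusted p = 0.170 from limma).

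**Figure D5:**
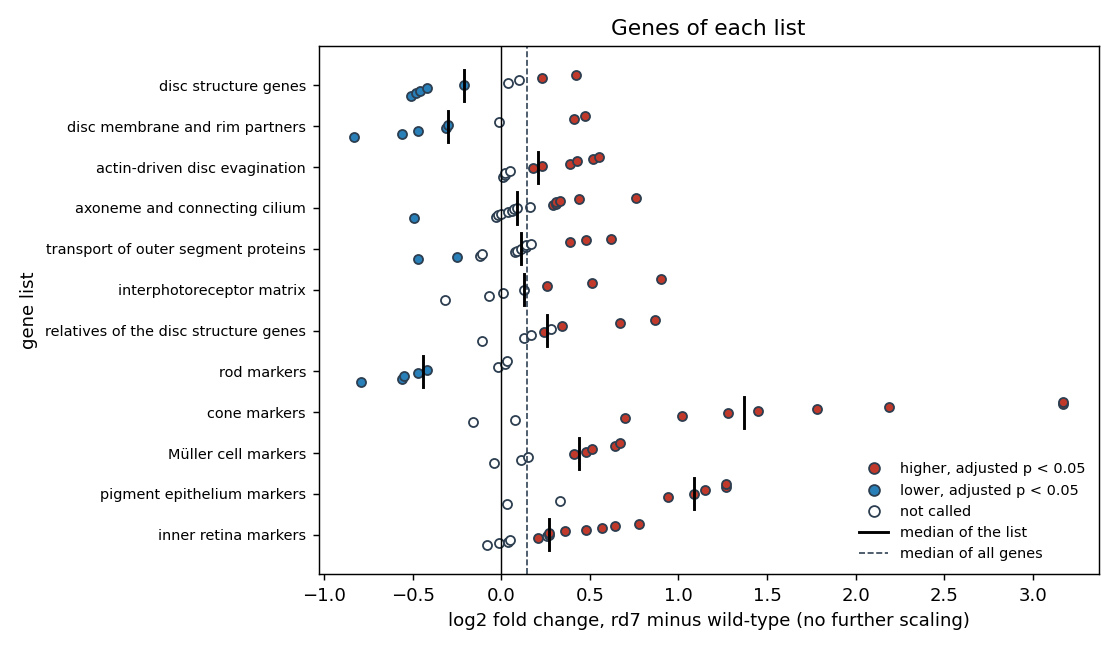
Log2 fold change of each tested gene by list, *rd7* minus wild-type without further scaling, with the median of each list as a bar, that of all genes (0.15) as a dashed line, and colour for genes with an adjusted p from limma under 0.05. The disc structure genes (median -0.21) and their membrane and rim partners (-0.30) lie, by their medians, between the rod markers (-0.44) and the other outer segment lists (0.09 to 0.21).

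Markers of cell types were counted in the same way, against the same shares of all genes. Of 11 rod markers, 8 were tested, with 5 lower and 0 higher (6 and 0 after the correction for GC and length), and *Pde6a*, *Pde6b* and *Sag* were not called. The rod markers with a successful estimate summed to an FPKM of 15150 and 15450 in wild-type and of 11040 and 11680 in *rd7* retinas. Of 10 cone markers, 8 were higher and 0 lower, also after the correction, with a sum of 1453 and 1497 in wild-type and of 4517 and 4809 in *rd7* retinas. With median-ratio scaling, 1 cone marker, *Opn1mw*, was lower. Of 8 Müller cell markers, 5 were higher and 0 lower (4 and 1 with median-ratio scaling, 4 and 0 after the correction), with sums of 1906 and 1973 in wild-type and of 2151 and 2087 in *rd7* retinas. Of 11 pigment epithelium markers, 7 were tested and 5 were higher and 0 lower (4 and 0 with median-ratio scaling, and 3 and 1 of 6 after the correction), with sums of 41.7 and 26.8 in wild-type and of 76.5 and 65.0 in *rd7* retinas. Of 13 inner retina markers, 8 were higher and 0 lower (3 and 0 under both alternatives, near the share of all genes with median-ratio scaling), with sums of 657 and 674 in wild-type and of 800.3 and 737 in *rd7* retinas. No listed marker was at 0 in all 4 libraries. The part of cell composition in the differences of the disc structure genes was not tested.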

How the data were processed

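RNA-seq of 4 libraries was analysed, 2 from *rd7* and 2 from wild-type retinas. The authors mapped single reads of 50 bases to mm9 with TopHat 1.4.1 and obtained FPKM per locus and library with Cufflinks 1.3.0. FPKM divides out transcript length and depth but not library composition, and the annotation and strand setting are not given in the sources used here. The deposited table marks each FPKM with a status, and 262 loci without a successful estimate in all 4 libraries were left out of the tests, 69 of them averaging 1 FPKM or more. The deposited Cuffdiff table holds the authors' pooled FPKM, log2 ratios, p-values and q-values per genotype and was not used. The authors, also at an FDR of 5%, reported far fewer genes higher in *rd7* retinas than limma called here. Starts of loci were counted from 1.

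Log2(FPKM + 0.1) was compared by limma 3.58.1 in R 4.3.3 (moderated variances with a trend, two-sided, Benjamini-Hochberg adjustment), fitted to all genes without a block. It was tested on simulated data, where false calls kept within the FDR with a variance drawn per gene but exceeded it in an earlier simulation with a common variance at each expression level, so the FDR is approximate with 2 libraries per genotype. Counts over lists, ratios and motifs were computed in Python 3.11.15. Of the genes tested, 96.9% had an exonic length and GC content from GENCODE on the same build, and the correction subtracted natural splines (5 degrees of freedom each) from how far each library stood from the mean of each gene. Depth was estimated from FPKM times kb between 0.02 and 0.036 in genes with a single transcript of over 800 bases. This preset window bounds the estimated depth itself and limits how far libraries could differ, so the read numbers are rough. They cover counting error only. Symbols missing from the table were matched by RefSeq synonyms, which left *Cngb1* and *Pcare* without a match. The genes named are the 10 disc structure genes, the highest and lowest of each outer segment list and fixed partners. *Opn1mw*, *Pde6a*, *Pde6b* and *Sag* were added after their values were seen. These genes and lists were chosen with earlier results of these data known. Alternatives were other pseudocounts, filters, scalings and thresholds, no variance trend, a replicate block and leaving out each library.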

Additional observations from a re-analysis of the deposited data

How the results depend on the processing

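Of the 9 disc structure genes tested, 5 were called lower and 2 higher as reported, compared with 8.80% and 37.6% of all genes. Without a filter on low FPKM, 3 were lower and 1 higher. In that fit, which held more loci, calls over all genes fell too, to 455 lower and 2249 higher. Median-ratio scaling left 1 higher (19.7% of all genes) and the GC and length correction 0 (12.4%). Quantile normalization left 1 higher, beside 2350 genes higher over all. With one library left out, the lower genes ranged from 2 to 5 and the higher genes from 0 to 3, the lowest numbers without a wild-type library, where the lone library is assumed to vary like the other genotype. Both counts stayed within 1.5 times under pseudocounts of 1 and 0.01, a mean FPKM of at least 5, no variance trend, an FDR of 1% and loci of any status. Signs turned for *Cdhr1* (-0.06 under median-ratio scaling, -0.08 after correction for GC and length), *Rp1* (-0.12 and -0.36) and *Impg1* (-0.06 with the GC and length correction), and the cause was not tested. Over all genes, 4755 were higher and 1114 lower. The counts were 2249 and 455 without a filter, 2492 and 2479 under median-ratio scaling, 2350 and 2404 after quantile normalization, 1520 and 1849 after correction for GC and length, and 2582 and 446 at an FDR of 1%. They ranged from 1293 to 5484 and from 224 to 1601 with one library left out. Libraries with the same replicate number were not paired (their deviations had r = -0.0265 across genes). With the replicate block, 5 disc structure genes were lower and 2 higher, and 4508 genes were higher and 1091 lower over all. By the rough estimate of depth, counting error was small for the disc structure genes, whereas 2 libraries per genotype limit the precision of every difference.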

Other observations

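The disc structure genes belong to families with other members that were also in the table. Of 16 relatives, 8 had a mean FPKM of at least 1, and 4 of these were higher and 0 lower at an FDR of 5% in limma (median log2 fold change 0.26), compared with 37.6% and 8.80% of all genes. Under median-ratio scaling 2 were higher and 1 lower (median 0.11), and after the correction for GC and length 1 was higher and 1 lower (median 0.11). *Prom2*, the relative of *Prom1*, had an FPKM between 0.0761 and 0.154, and *Fscn3* was listed between 0 and 0.0178. *Fscn1*, the fascin of other cells, had an FPKM of 29.1 and 29.3 in *rd7* and of 26.7 and 26.6 in wild-type retinas (log2 fold change 0.13, adjusted p = 0.0624 from limma). *Tub*, the founding tubby gene, had an FPKM of 69.6 and 69.2 in *rd7* and of 75.0 and 74.8 in wild-type retinas. It was not called as reported (log2 fold change -0.11, adjusted p = 0.090 from limma) and was called lower under median-ratio scaling (-0.26, limma, adjusted p = 0.00835). *Tulp3* had a log2 fold change of 0.17 (adjusted p = 0.0858 from limma). *Dclk1*, a kinase with doublecortin domains like those of *Rp1*, rose from an FPKM of 12.5 and 12.9 to 18.9 and 21.9 (log2 fold change 0.67, adjusted p = 0.00266 from limma), and *Dcx* had the highest value, at 0.87 (adjusted p = 0.0334 from limma), which was not called under median-ratio scaling (0.73, limma, adjusted p = 0.0616) or after the correction (0.47, limma, adjusted p = 0.208).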
